A study of Drosophila melanogaster with 39 samples.

Results

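The loop-deficient mutant of the fly protein Piwi, Piwi-LD, was examined through the small RNAs that co-purified with it from ovarian somatic sheath cells (OSC). Its 3 libraries were taken by their labels from the 39 samples of the study and compared with the 5 OSC libraries of Piwi wt, the same tagged protein with its natural loop. The study altered the specificity loop of Piwi, sequenced small RNAs bound to each construct in OSC or ovaries, and asked how the loop bears on which piRNAs Piwi carries. OSC were sequenced in 20 libraries of 10 constructs: wt with 5 libraries, Piwi-SL(Ago3), Piwi-SL(GSS) and Piwi-LD with 3 each, and 6 further loops with 1 each. All were made in one cell line, the ovarian line of Niki et al., whose genetic background was the same throughout. The tagged proteins were expressed by transient transfection from an episomal plasmid with a UASp promoter and an N-terminal FLAG-HA tag, in cells that keep their own piwi gene. RNA was recovered with anti-FLAG beads, and untagged Piwi was not measured. The deposited tables hold read counts by mapping class, length and annotation but no genes, so the identity of the cells was not checked against markers, and neither was the deletion itself. The study describes its replicated OSC data as biological replicates where so marked, and the labels only number the libraries. The sources used here do not say whether each came from its own transfection, so the p-values measure the spread between these libraries, part of which may be technical.

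Piwi is the nuclear PIWI protein of the fly. It binds piRNAs, small RNAs cut from long precursors, and these guide it to nascent transposon transcripts that are then silenced. In the somatic cells of the ovary, from which OSC derive, Piwi is the only PIWI protein, and most of its piRNAs are antisense to retrotransposons of the Gypsy group. The 5′ end of the guide is held in a pocket between the MID and PIWI domains, and the specificity loop is a short turn of the MID domain that faces the first base. Argonaute proteins without a bound guide are often unstable, and unloaded Piwi does not accumulate in the nucleus.

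The loop was deleted with the primer pair shown here, which defines what Piwi-LD lacks. The piwi gene lies on chromosome 2L from 10982205 to 10987420 of dm6, on the minus strand. Each primer anneals to the coding sequence beside the loop, and the capitals mark its tail of 6 bases, which writes the replacement linker.
LD forward primer: GGCGGCtactcatcaatcaaaaagagag
LD reverse primer: GCCGGCgcataatataagtttgggatc
LD linker, coding strand: gccggcggcggc
The linker of 12 bases holds 4 codons, 1 for alanine and 3 for glycine. The study names it a GGG linker, without the alanine read here from the primers. The primers of the loop exchanges, such as Piwi-SL(GSS), leave 3 more bases of piwi downstream of the loop and 6 more upstream. Piwi-LD therefore lost 9 bases, or 3 codons, beyond the 6 loop codons that the exchanges replace. Taken from the primers, 9 codons of piwi were replaced by 4.

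Raw reads ranged from 4040871 to 8610589 in the 3 Piwi-LD libraries and from 2861749 to 10745821 in the 5 wt libraries, and no library repeated the counts of another within sampling noise. Several library features lay along the groups. All 3 barcodes of Piwi-LD begin with NN in the labels and none of the 5 wt barcodes does, so barcode type and construct go together in this comparison. Among all 20 OSC libraries 4 barcodes begin with NN, the other being replicate 3 of Piwi-SL(GSS). As GSS alone holds both types, a linear fit of construct and barcode type over the 20 libraries was possible, in which that 1 library sets the barcode term, and its values are given with their SE and no test. Replicate 5 of wt stood apart from the other wt libraries in mapping and length. It carries the same barcode label as wt replicate 1.

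Most reads of Piwi-LD did not map to the fly genome. Unmapped reads were 77.9%, 68.2% and 60.6% of raw reads in Piwi-LD replicates 1, 2 and 3. In wt replicates 1 to 5 they were 9.01%, 9.51%, 8.78%, 8.28% and 17.4%. The groups did not overlap, and the lowest Piwi-LD library was far above wt replicate 5, the highest of wt. The means were 68.9% ± 8.66 (SD, n = 3) and 10.6% ± 3.82 (SD, n = 5), a difference of 58.3 ± 5.29 points (SE) or 6.51-fold. Unmapped reads are reads without an accepted position in dm6. The study removed reads of structural RNAs before mapping, and whether these are counted as unmapped is not given in the sources used here.

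Uniquely mapped reads (M = 1), which have one genomic origin, were 6.36%, 9.61% and 11.4% of raw reads in the Piwi-LD libraries. In wt they were 31.9%, 32.5%, 30.8%, 31.3% and 27.0%. Every Piwi-LD library held less than the lowest of wt, and the mean fell by 21.6 ± 1.77 points (SE). Multimapping reads with up to 100 positions (M ≤ 100), the class that holds most transposon piRNAs, were 15.7%, 22.2% and 27.96% in Piwi-LD. In wt they were 59.0%, 57.9%, 60.4%, 60.4% and 55.6%. The mean fell by 36.7 ± 3.65 points (SE), again without overlap.

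Reads with more than 100 positions were rare in both groups. Piwi-LD held 3, 206 and 0 such reads in replicates 1, 2 and 3, or 0.742 and 23.9 reads per 1000000 raw reads (RPM) in the first pair. For replicate 3, a count of 0 allows up to 0.488 RPM. The wt libraries held 326, 247, 214, 235 and 165 RPM in replicates 1 to 5. All were therefore above the highest Piwi-LD library.

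With barcode type as a term, the differences of Piwi-LD from wt were smaller and kept their directions in all 4 classes. Unmapped reads were then 41.2 ± 6.87 points higher (SE), in place of 58.3. Unique reads differed by −17.4 ± 2.72 points and reads with M ≤ 100 by −23.7 ± 4.53 points, the latter in place of −36.7. Reads with more than 100 positions differed by −0.0132 ± 0.00681 points in place of −0.0229.

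**Figure D1:**
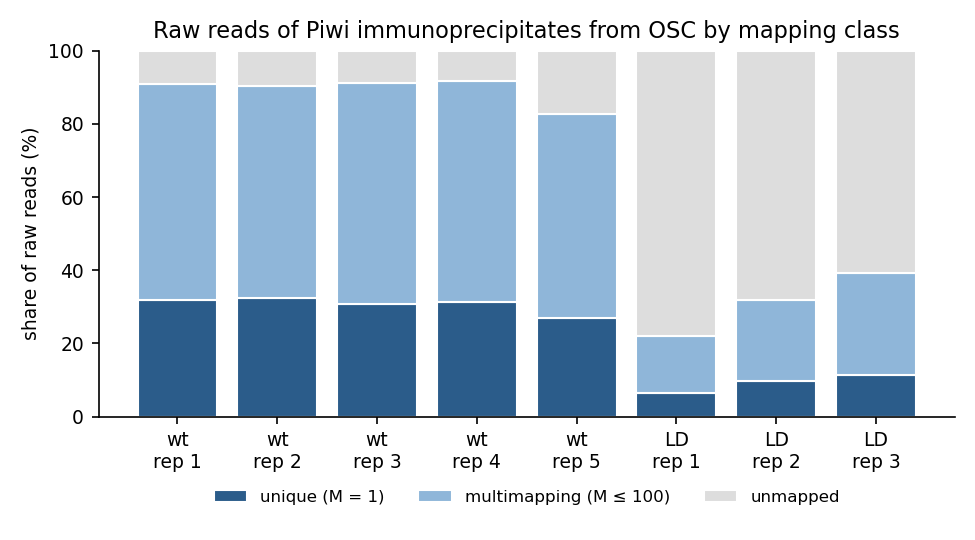
Bars show each OSC library of wt and Piwi-LD, and their segments the share of raw reads (%) that mapped once, mapped to at most 100 positions or did not map (reads with more positions are too few to be visible). Unmapped reads filled 60.6% to 77.9% of the Piwi-LD bars and 8.28% to 17.4% of the wt bars.

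All 4 mapping classes passed the test (percent called 100), 3 of them lower and 1 higher in Piwi-LD. For each, the two-sided exact permutation test gave p = 0.0357 over the 56 assignments of 3 and 5 libraries, which is the smallest p these numbers allow, and an adjusted p = 0.0357. The classes sum to all raw reads and are not independent. The calls ended when p-values were adjusted over all 23 comparisons with wt (adjusted p = 0.103, exact permutation test) or when any 1 library of either group was left out, since 3 libraries against 4 or 2 against 5 cannot give p below 0.0571 or 0.0952 in an exact permutation test.

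Among the reads that did map, fewer lay in the size range of small RNAs. Mapped reads here are unique reads plus those with M ≤ 100. Reads of 20–30 nt made up 56.3%, 54.8% and 42.0% of mapped reads in the Piwi-LD libraries. The same share was 94.0%, 93.7%, 94.5%, 92.8% and 93.8% in wt. The wt libraries thus lay close together, and each Piwi-LD library lay far below all of them. The difference of means was −42.7 ± 4.55 points (SE), from 51.0% ± 7.87 (SD, n = 3) to 93.8% ± 0.619 (SD, n = 5). Mapped reads outside 20–30 nt were 9.65%, 14.4% and 22.8% of raw reads in Piwi-LD and 5.06% to 6.62% in wt. Their lengths were not analysed here.

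The yield of piRNA-length reads was lower still. Reads of 24–29 nt, the window the study uses for piRNAs, were 9.01%, 15.3% and 12.1% of raw reads in Piwi-LD. In wt they were 76.6%, 74.2%, 77.4%, 65.7% and 73.6%. The lowest wt library thus lay far above the highest Piwi-LD library. The mean was 12.2% ± 3.15 in Piwi-LD (SD, n = 3) and 73.5% ± 4.66 in wt (SD, n = 5), or 16.5% of wt. These are shares of a library, so less RNA bound to Piwi-LD and more RNA of other origin cannot be told apart.

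The unique share of mapped reads was lower in each Piwi-LD library than in any wt library. Unique reads were 28.8%, 30.2% and 28.95% of mapped reads in Piwi-LD, and 35.1%, 35.9%, 33.8%, 34.2% and 32.6% in wt. The ranges did not overlap, and the means differed by 29.3% ± 0.786 (SD, n = 3) against 34.3% ± 1.26 (SD, n = 5). In a family of 8 summaries of mapping and length, 3 did not overlap between the groups (percent called 37.5). They were the unique share, the 20–30 nt share of mapped reads and the 24–29 nt yield. Each gave p = 0.0357 in the exact permutation test and an adjusted p = 0.0952, so 0 of 8 passed the threshold of 0.05 (percent called 0), with 3 of 8 at an unadjusted p below it. With barcode type as a term the differences from wt were −6.21 ± 1.33 points for the unique share (SE), −31.8 ± 5.33 for the 20–30 nt share and −42.9 ± 5.72 for the yield.

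The length profile of the 20–30 nt reads kept its peak. The most frequent length was 26 nt in all 3 Piwi-LD libraries and in wt replicates 1 to 4, and 27 nt in wt replicate 5. Reads of 26 nt were 17.9%, 21.98% and 18.6% of 20–30 nt reads in Piwi-LD, and 26.8%, 26.1%, 27.1%, 24.6% and 20.4% in wt. The peak was thus lower in every Piwi-LD library than in wt replicates 1 to 4, while Piwi-LD replicate 2 lay above wt replicate 5 (exact permutation test, p = 0.0714, adjusted p = 0.262).

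Mean length was 25.2, 26.2 and 25.1 nt in the Piwi-LD libraries. It was 25.8, 25.7, 25.9, 24.9 and 26.8 nt in wt. The Piwi-LD values lay inside the range of wt, with a difference of −0.288 ± 0.457 nt (SE; exact permutation test, p = 0.571, adjusted p = 0.607). With barcode type as a term the difference was −1.63 ± 0.796 nt (SE), and GSS replicate 3 had a mean length of 26.8 nt. Mean length is a weighted sum of the shares of single lengths. In the same fit, the falls at the longest lengths were larger than the wt means allow. The fitted value includes these impossible falls, so it gives no direction for Piwi-LD. The SD of length within a library was 2.37, 1.98 and 2.38 nt in Piwi-LD and 1.84, 1.95, 1.84, 2.15 and 1.60 nt in wt. Piwi-LD replicates 1 and 3 were broader than every wt library and replicate 2 was not (exact permutation test, p = 0.0714, adjusted p = 0.143).

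The Piwi-LD libraries differed among themselves at the short end. Reads of 20–23 nt, below the piRNA window, were 24.7%, 9.63% and 24.7% of 20–30 nt reads in Piwi-LD replicates 1, 2 and 3. In wt they were 9.79%, 11.8%, 9.17%, 22.6% and 3.97%. Replicate 2 of Piwi-LD lay among the wt libraries, and wt replicate 4 lay near Piwi-LD replicates 1 and 3 (exact permutation test, p = 0.214, adjusted p = 0.286). The share of 24–29 nt was 72.6%, 87.8% and 73.5% in Piwi-LD and 89.5%, 87.5%, 89.9%, 77.2% and 94.9% in wt (exact permutation test, p = 0.107, adjusted p = 0.171). The long end of 28–30 nt was 16.9%, 27.0% and 15.9% in Piwi-LD and 13.7%, 14.2%, 14.98%, 6.84% and 34.3% in wt (exact permutation test, p = 0.607, adjusted p = 0.607).

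Of the 11 single lengths, 30 nt alone did not overlap between the groups (percent called 9.09), and 0 of 11 passed after adjustment (percent called 0). A single length at the smallest possible p could not pass the adjustment over 11 lengths. Reads of 30 nt were 2.69%, 2.54% and 1.77% of 20–30 nt reads in Piwi-LD and 0.675%, 0.683%, 0.966%, 0.212% and 1.13% in wt. The means of 2.33% ± 0.491 (SD, n = 3) and 0.733% ± 0.349 (SD, n = 5) differed 3.19-fold, with p = 0.0357 and an adjusted p = 0.262 in the exact permutation test, the only length of 11 with an unadjusted p below 0.05. In GSS replicate 3, the other NN library, reads of 30 nt were 7.04%, above every Piwi-LD library, against 0.733% and 0.279% in GSS replicates 1 and 2. With barcode type as a term the difference of Piwi-LD from wt was −4.93 ± 0.498 points (SE). Such a fall is larger than the wt mean of 0.733% allows. The additive barcode term therefore does not carry over at this length, and the value gives no direction for Piwi-LD. Reads of 21 nt, the length of fly siRNAs, were 6.21%, 1.57% and 7.32% in Piwi-LD and 2.24%, 2.67%, 2.08%, 5.42% and 0.911% in wt. Again Piwi-LD replicate 2 lay within wt and the other Piwi-LD libraries above it.

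**Figure D2:**
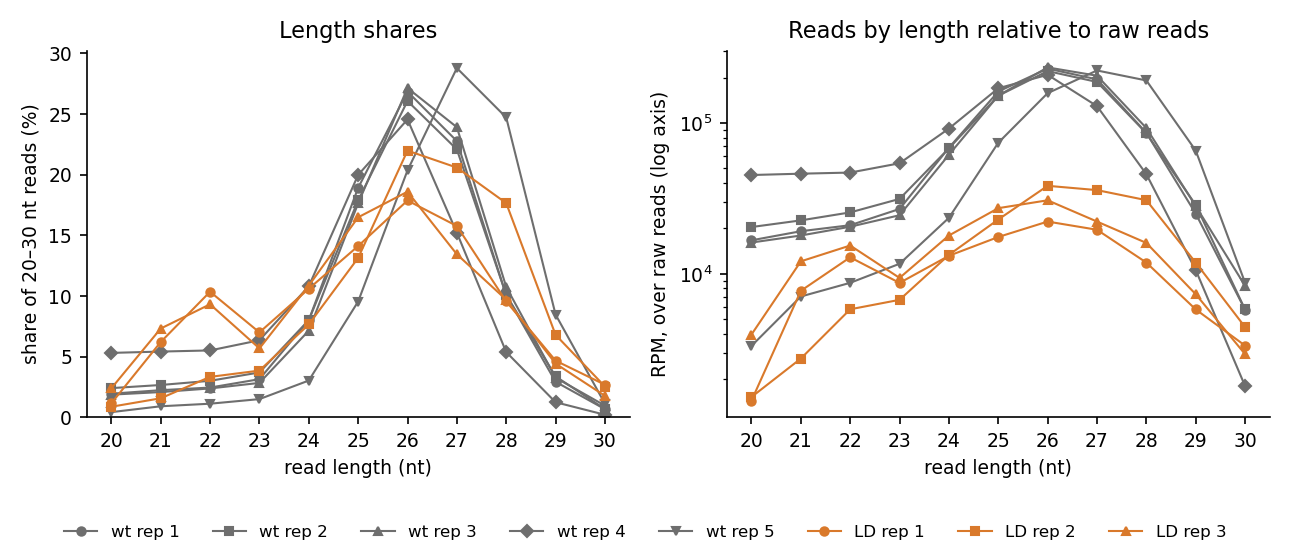
Each line is 1 OSC library of wt (grey) or Piwi-LD (orange). The left panel shows the share of 20–30 nt reads (%) at each length (nt), with a peak at 26 nt in all libraries except wt replicate 5 (27 nt), and the right panel shows RPM (reads over raw reads) on a log axis, where the Piwi-LD lines lie below all wt lines from 23 to 28 nt.

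Reads of 22 nt were above the mean of their neighbours in each Piwi-LD library and in no wt library. Counts at 22 nt exceeded those at both 21 and 23 nt in Piwi-LD replicates 1 and 3, while in Piwi-LD replicate 2 and in every wt library they were below those at 23 nt. The count at 22 nt, divided by the mean of the counts at 21 and 23 nt, was 1.57, 1.23 and 1.43 in the Piwi-LD libraries. In the 5 wt libraries this ratio was 0.912 to 0.968, that is, the counts ran without a step at 22 nt. This ratio was chosen after the profiles had been seen and was not tested. It was 1.47 in replicate 3 of Piwi-SL(GSS), the other OSC library with an NN barcode, and 0.745 to 1.05 in the 16 OSC libraries with other barcodes. In ovaries, where all 4 Piwi libraries have NN barcodes, it ranged from 0.931 to 1.58. With barcode type as a term the difference of Piwi-LD from wt in this ratio was −0.072 ± 0.117 (SE), in place of 0.472.

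Distances between whole profiles showed no compact Piwi-LD profile. The distance used was the summed absolute difference of the 11 shares divided so that identical profiles give 0 and profiles without shared lengths 100 points. Pairs of Piwi-LD libraries lay 5.84 to 21.6 points apart (median 19.2, 3 pairs), with replicates 1 and 3 the closest. Pairs of wt libraries lay 2.49 to 41.0 points apart (median 18.1, 10 pairs), and pairs across the groups 13.3 to 36.2 (median 20.1, 15 pairs). The spread within each group was therefore about as wide as the distance between the groups.

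Relative to raw reads, the lower yield in Piwi-LD varied with length. At 27 nt, wt held 7.27 times the RPM of Piwi-LD, and at 26 nt 6.91 times. The ratio was 2.16 at 22 nt and 1.71 at 30 nt. The libraries did not overlap at any length from 23 to 28 nt, while at 20, 21, 22, 29 and 30 nt they did. Over 20–23 nt wt held 3.30 times and over 24–29 nt 6.05 times the reads of Piwi-LD. The wt-to-LD ratio was thus highest in the middle of the piRNA window apart from 20 nt (8.83), where Piwi-LD counts were lowest. These ratios were not tested.

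Piwi-LD also stood apart from the mutants that keep a loop. Against the 3 Piwi-SL(Ago3) and 3 Piwi-SL(GSS) libraries, 3 of 4 measures passed the test (percent called 75), 1 higher and 2 lower in Piwi-LD. Unmapped reads were 8.19% to 26.2% of raw reads in those 6 libraries (mean 11.8% ± 7.07, SD, n = 6). The 20–30 nt share of mapped reads was 82.4% to 94.6%, and the 24–29 nt yield 52.8% to 78.3% of raw reads. For each of these 3 measures the two-sided exact permutation test over 84 assignments gave p = 0.0238, the smallest possible, and an adjusted p = 0.0317. For mean length p was 0.381 in the same exact permutation test. The 3 calls were kept without any 1 Ago3 or GSS library, and all ended without any 1 Piwi-LD library, where the smallest p possible is 0.0714 (exact permutation test).

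Replicate 3 of Piwi-SL(GSS), the library with the NN barcode, lay between Piwi-LD and the rest. Its unmapped share was 26.2%, its 20–30 nt share of mapped reads 82.4% and its 24–29 nt yield 52.8%, against 8.88% and 9.12%, 93.1% to 93.6%, and 66.9% to 75.4% in the other GSS pair. Every Piwi-LD library lay beyond this library in all 3 measures, at 60.6% or more, 56.3% or less and 15.3% or less. Within the NN barcodes Piwi-LD differed from this library by 42.8 points in unmapped reads, −31.4 in the 20–30 nt share and −40.6 in the yield. None of these passed (p = 0.5 in each exact permutation test, the smallest that 3 libraries against 1 allow).

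Set against all 17 other OSC libraries, the 3 Piwi-LD libraries lay outside the range in the shares of all 4 mapping classes, the 20–30 nt share of mapped reads and the 24–29 nt yield. Unmapped reads were 8.17% to 26.2% in the 17 libraries, unique reads 22.6% to 32.5% and reads with M ≤ 100 51.2% to 66.4%. The lowest 24–29 nt yield among them was 46.1% in the library of the AtAGO1 loop, against 15.3% in the highest of Piwi-LD. In contrast, 0 of 11 single lengths had a Piwi-LD library outside the range of the others. The unique share of mapped reads, lower than in wt, also lay within that range (27.7% to 35.9%). The SD of length lay above all 17 in Piwi-LD replicates 1 and 3 (2.37 and 2.38 nt, against 1.34 to 2.27 nt), but not in replicate 2.

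**Figure D3:**
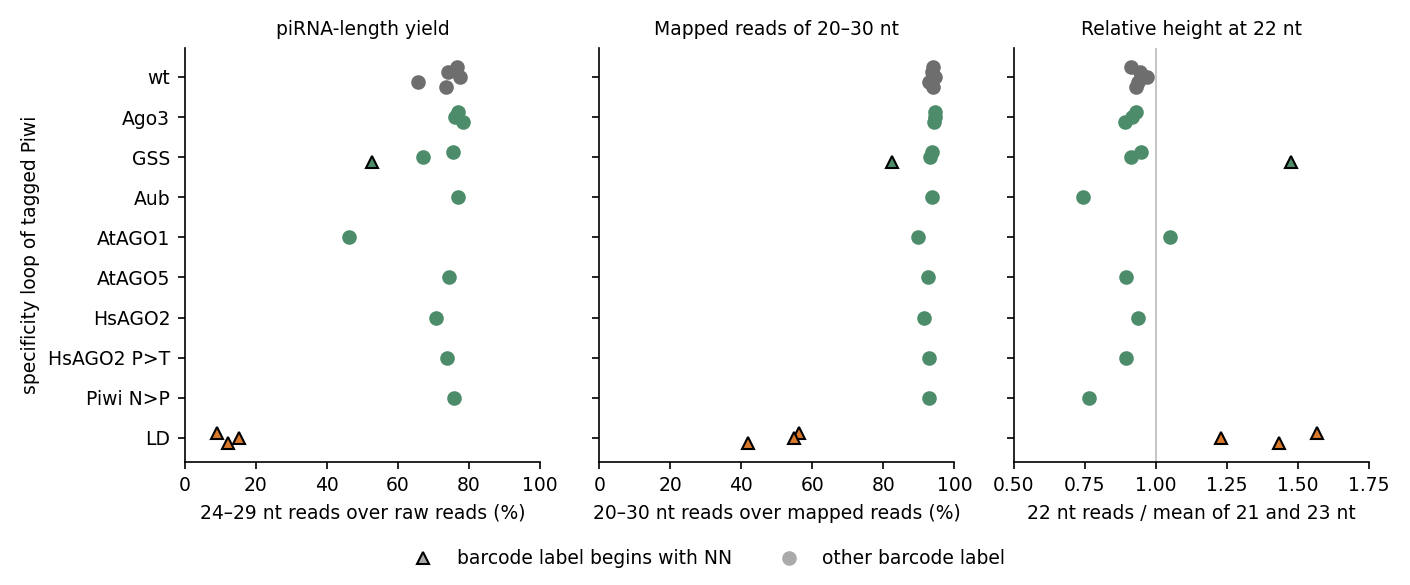
Each symbol is 1 of the 20 OSC libraries, placed by the loop of its construct (rows), and triangles mark barcode labels that begin with NN. The panels show the 24–29 nt yield over raw reads (%), the 20–30 nt share of mapped reads (%) and the ratio of 22 nt reads to the mean of 21 and 23 nt. Piwi-LD lies at 9.01% to 15.3% and 42.0% to 56.3% in the first panels, below all others, and the GSS library with an NN barcode reaches 1.47 in the last.

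The origin of the mapped reads was tabulated once per construct, so the annotation has no replicate error and was not tested. The row labelled Piwi-LD replicate 1 sums to 2736859 reads, which equals the mapped reads of replicate 2 and not the 891760 of replicate 1. The row labelled wt replicate 1 sums to 9716686 reads, 100.3% of the mapped reads of that library, and equals no library. Among the other constructs, the rows of Ago3 and GSS also equal no library (199.96% and 99.5% of the mapped reads of their own), and the rows labelled HsAGO2 and HsAGO2 P>T hold the sums of each other. The other constructs are therefore given only as a range over their 8 rows. These sums hold mapped reads of all lengths, and only 54.8% of those of Piwi-LD replicate 2 were 20–30 nt long. The study states a restriction to 24–29 nt for its annotation, but the Piwi-LD row exceeds the 1318106 such reads of replicate 2. The intervals below are exact Clopper-Pearson intervals at 95%, and they cover counting error only.

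Reads antisense to transposons, the strand that can pair with transposon transcripts, were the largest group in both rows, at 45.1% in Piwi-LD (interval 45.0% to 45.1%) and 60.8% in wt (60.7% to 60.8%). The 8 other constructs held 60.7% to 66.3%. Reads of the transposon sense strand were 3.16% in Piwi-LD and 4.95% in wt. The excess of antisense over sense transposon reads was not lower, with 14.3 antisense reads for each sense read in Piwi-LD, 12.3 in wt and 11.7 to 17.6 in the other constructs.

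Reads outside transposons, exons and introns were 33.0% in Piwi-LD and 10.5% in wt, 3.13-fold apart, with 10.7% to 13.8% in the other constructs. When these reads were left out, antisense transposon reads were 67.2% in Piwi-LD and 67.9% in wt, a difference of −0.69 points in place of −15.7. Without these reads the rows of Piwi-LD and wt were thus nearly equal in antisense transposon share. The other constructs held 70.4% to 75.3% on that scale, so Piwi-LD was below all 9 constructs on either scale.

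The Piwi-LD row held fewer exon and more intron reads than the wt row. Sense exon reads, the class that holds piRNAs made from messenger RNAs, were 6.68% in Piwi-LD and 15.9% in wt, 2.38-fold apart, and 9.85% to 11.9% in the other constructs. Antisense exon reads were 1.31% in Piwi-LD and 0.875% in wt. Sense intron reads were 7.58% and 4.44%, and antisense intron reads 3.23% and 2.55%. Piwi-LD lay above all 9 constructs in these last 3 classes and below all 9 in sense exon reads.

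The strand bias of exon reads was weaker in the Piwi-LD row. It held 5.11 sense exon reads for each antisense exon read, against 18.1 in wt and 11.2 to 15.4 in the other constructs. It held 0.881 sense exon reads for each sense intron read, against 3.57 in wt and 1.67 to 2.69 elsewhere. Intron reads had a ratio of sense to antisense of 2.35 in Piwi-LD, within the range of the other constructs (1.76 to 2.52), and 1.74 in wt. Ratios of classes do not depend on the reads outside transposons and genes, but they do hold reads of all lengths. Without those outside reads the Piwi-LD row still holds 1834545 reads, more than the 1500791 reads of 20–30 nt in replicate 2. Part of its annotated reads therefore lay outside 20–30 nt, while in every wt library at least 92.8% of mapped reads lay within. The ratios were not computed by length.

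**Figure D4:**
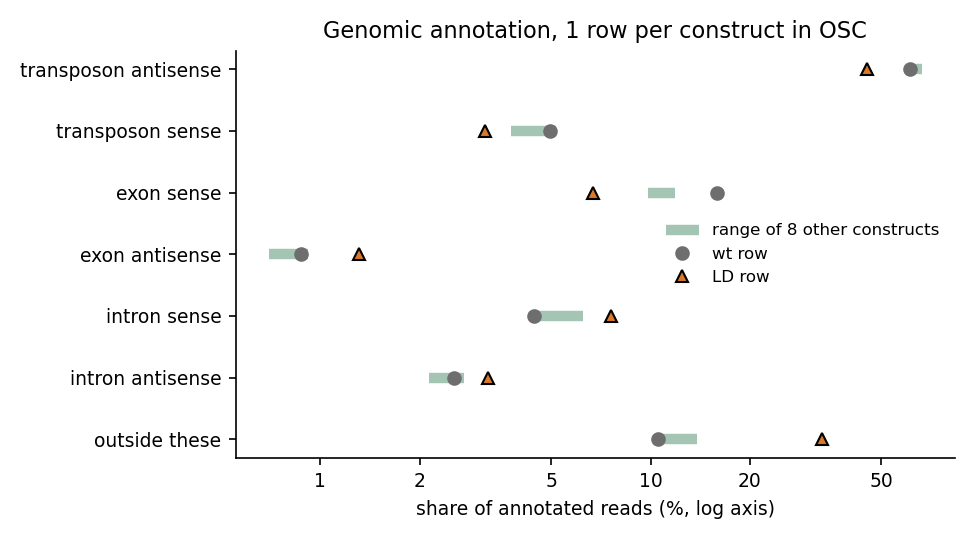
Shares of annotated reads (%, log axis) by class, with 1 row per construct in OSC. Triangles show Piwi-LD, circles wt and bars the range of the 8 other constructs. Piwi-LD lies outside the range of all 9 other constructs in every class, with 33.0% outside transposons, exons and introns against 10.5% in wt.

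Relative to raw reads, the classes differed in how far Piwi-LD lay below wt. With the Piwi-LD row set over the raw reads of replicate 2 and the wt row over those of replicate 1, sense exon reads were 21234 and 144861 RPM, 6.82-fold apart. Antisense transposon reads were 143275 and 554708 RPM, 3.87-fold apart. Sense intron reads were 1.68-fold and antisense exon reads 1.92-fold apart. Reads outside transposons, exons and introns were 104791 and 96100 RPM, so here the Piwi-LD row was slightly above that of wt. As the wt row equals no single library, its values over raw reads are approximate.

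Piwi-LD was sequenced from ovaries in 1 library, which was compared with the 1 wt library without a test. Mapped reads were 85.2% of raw reads in Piwi-LD and 73.7% in wt, and the 24–29 nt yield was 59.1% and 53.7%. The ovary library of Piwi-LD therefore did not have the low mapped share of the OSC libraries. Its reads were shorter, with a mean of 25.04 nt against 26.5 nt and 22.2% against 4.03% of 20–30 nt reads at 20–23 nt. The transgenes were driven through UAS by Gal4 from the piwi locus. By the study's text, the wt library came from piwi null ovaries rescued by the transgene, and the Piwi-LD library from piwi heterozygous flies. On that account construct and genotype go together in ovary and cannot be told apart. The labels and the study's text differ on whether the Piwi-LD flies kept 1 intact piwi allele.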

How the data were processed

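The study sequenced small RNAs that co-purified with tagged Piwi from OSC and ovaries. The authors trimmed reads with cutadapt, removed structural RNAs and mapped the rest to dm6 with STAR, per the study's methods and the submitters' processing notes. The deposited tables hold counts, not normalized, of raw, unique, multimapping and unmapped reads, of mapped reads of 20–30 nt by length, and of reads by annotation (other values in them, fractions of raw reads, were not used). 0 columns lacked a sample. Total RNA and ovary annotation were not used here. The 4 mapping classes sum to the raw reads.

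Groups, the table rows and the barcodes came from the labels. Shares were computed per library and compared by two-sided exact permutation tests of the difference of means, checked against scipy on simulated data, with Benjamini-Hochberg adjustment within families of 4 mapping classes, 11 lengths, 8 summaries and 4 measures against Ago3 and GSS (threshold 0.05). Log2 odds used a pseudocount of 0.5. A count of 0 was given a limit of 3 counts. Every mapping class and summary, 21 nt, 26 nt and any length without overlap were named with all values. The libraries, measures and windows were chosen with earlier results of these data known. Alternatives were single libraries left out, log2 odds, medians, other denominators and windows, a replicate block, and, chosen after seeing the data, adjustment over all 23 comparisons, barcode type as a term in a least-squares fit with construct over the 20 OSC libraries, and a test within NN barcodes. Calculations used Python 3.11.15, numpy 2.4.6 and scipy 1.17.1, and figures matplotlib 3.10.9. Primers came from the study's primer list, and coordinates from RefSeq and Ensembl annotation of dm6.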

Additional observations from a re-analysis of the deposited data

Results flagged for a closer look

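In wt, replicate 5 was far from the other 4 libraries in 3 of 24 values examined by Dixon's criterion, which flags about 1 in 20 groups by chance. Its unmapped share was 17.4% of raw reads (nearest library 9.51%), its 25 nt share 9.54% of 20–30 nt reads (nearest 17.6%) and its 28 nt share 24.7% (nearest 10.7%).

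In 7 measures whose groups did not overlap in OSC, the difference of Piwi-LD from wt had opposite directions in ovary, with 1 library each, and in OSC. Unique reads, over raw or over mapped reads, did not overlap in OSC either and were lower in Piwi-LD in both tissues. Measures that overlapped in OSC are not listed, although some of them, such as the 28–30 nt share, also had opposite directions. Whether the tissues differ was not tested. By the study's text the ovary wt library came from rescued piwi null flies and that of Piwi-LD from heterozygous flies, so the ovary differences also hold a difference of genotype. Mapped reads over raw reads differed by 11.5 points in ovary and −58.3 points in OSC, unmapped reads by −11.5 and 58.3, and reads with M ≤ 100 by 12.7 and −36.7. The measures are not independent. Mapped and unmapped reads make up nearly all raw reads, so their differences are nearly a single difference counted for each. Reads with M ≤ 100 and the 24–29 nt yield are parts of the mapped reads. Reads with more than 100 positions differed by 0.0413 and −0.0229 points. The 24–29 nt yield over raw reads differed by 5.47 and −61.3 points, the 20–30 nt share of mapped reads by 10.8 and −42.7, and the 30 nt share of 20–30 nt reads by −3.20 and 1.60. All 4 barcodes of the ovary Piwi libraries and all Piwi-LD barcodes of OSC begin with NN, and no wt barcode of OSC does.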

How the results depend on the processing

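Of 392 values of single measures listed under alternatives, 372 kept their direction and 20 reversed. Some of the 372 could not have reversed. Adjustment over all 23 comparisons changes only the adjusted p, so its differences repeat the main values. The replicate block against Ago3 and GSS also gave the main differences again. So did the alternative length window for the unique share of mapped reads and the 24–29 nt yield. The 4 calls of mapping classes became 0 without any 1 library (range 0 to 0), 0 with medians, 0 when adjusted over all 23 comparisons and 0 with a replicate block of replicates 1 to 3 (smallest possible p = 0.25, exact permutation test). With medians, groups without any overlap gave p = 0.107 (exact permutation test), so that setting could not have passed. Whether the replicate numbers pair the libraries is not known. Deviations of same-numbered length profiles correlated at 0.0408, −0.555 and −0.184, and those of differently numbered pairs at −0.898 to 0.939. So wide a range cannot decide it. Over mapped reads 2 of 2 classes passed, and M ≤ 100 was then 4.99 points higher in Piwi-LD. These 2 classes sum to all mapped reads, so their calls are a single test counted for each. The same unique share did not pass among the 8 summaries (adjusted p = 0.0952, exact permutation test). The 3 calls against Ago3 and GSS ranged from 0 to 3 without 1 library, and were 0 with medians, 0 with the replicate block (adjusted p = 0.0988, exact permutation test) and 0 within NN barcodes. Here too these 3 settings could not have passed. Groups without overlap gave p = 0.0714 with medians, 0.0741 with the replicate block and 0.5 within NN barcodes (exact permutation tests). With barcode type as a term, differences from wt turned to 2.09 points at 20 nt, 4.25 at 25 nt, 2.35 at 26 nt, −10.2 at 28 nt, −8.57 at 29 nt, −4.93 at 30 nt and −23.7 over 28–30 nt. At 29 nt, 30 nt and 28–30 nt these falls exceed the wt means of 3.86%, 0.733% and 16.8%. They are impossible as shares, so these reversals give no direction for Piwi-LD. The difference in antisense transposon share, −15.7 points, was −0.69 without reads outside transposons, exons and introns and −18.7 against the median of the other constructs. With mapped reads as denominator, differences from wt became −0.016 points at 21 nt, −0.470 at 23 nt, −2.03 at 24 nt, −5.08 at 28 nt and −0.882 at 29 nt. At 28 nt the difference of 0.103 points was −0.395 with medians and ranged from −2.57 to 3.23 without 1 library. The 28–30 nt difference ranged from −0.383 (without Piwi-LD replicate 2) to 7.53. The 0 calls among lengths and among summaries stayed at 0 under every alternative run. With a library left out, with medians or with the replicate block the test could not have passed. In the main setting too, 3 of 8 summaries or 1 of 11 lengths at the smallest possible p could not pass the adjustment. The exact tests are limited by the number of libraries, and the barcode term rests on 1 library.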
